A study of Mus musculus with 7 samples.

Results

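The messenger RNAs of 40 genes of acid secretion and lysosomal digestion were followed in the femurs of mice with a traumatic brain injury (TBI). The list was given by name, and all 40 were found by symbol among the 49671 genes of the count table. It holds 18 genes of the proton pump (8 of its V1 part, 8 of its V0 part and 2 accessory subunits), 2 genes of the chloride antiporter that works beside it, and 20 lysosomal genes (8 cathepsins, 5 other hydrolases, 3 lipid handling proteins, 2 membrane proteins, 1 channel and 1 transcription factor). Messenger RNA was sequenced from crushed whole femurs of wild-type mice. One group was 3 uninjured control libraries, and the other was 4 libraries from mice 3 days after TBI by controlled cortical impact (a driven tip hits the surface of the brain). The labels used here give no strain, age or sex, do not say whether controls had surgery, and do not tie libraries to separate mice, so the p-values reflect spread among these libraries, which may be technical.

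Bone is dissolved by acid. The vacuolar-type ATPase (V-ATPase) burns ATP in its cytosolic V1 part to turn a ring in its membrane-embedded V0 part, which carries protons across the membrane. Nearly every cell uses the pump to acidify lysosomes and endosomes, and the osteoclast also places it in the membrane facing bone, with the a3 subunit (encoded by Tcirg1) and the d2 subunit (encoded by Atp6v0d2) as its preferred forms. Macrophages, neutrophils and muscle fibres hold many lysosomal enzymes too, and a whole femur contains RNA of them all. In such bulk samples, fewer cells of a type and less RNA per cell cannot be told apart.

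The libraries held 15461528 to 21783534 counts each. Levels are given as CPM (counts scaled to library size, with TMM factors), and genes are compared with each other in RPKM (CPM per kilobase of merged exon length). Every member had counts in every library, and all 40 passed the low count filter. Bone and marrow genes were present as the tissue label says: the 8 osteoblast markers took 1.07% to 2.80% of counts and the 7 matched erythroid markers 2.29% to 5.10%. Muscle was present as well, with 10 muscle markers at 1.75% to 5.91% of counts in controls and 2.07% to 10.75% after TBI. Libraries TBI 3 and TBI 4 held the most muscle RNA, and TBI 1 the most neutrophil RNA (10 markers at 1.17% of counts, against 0.274% to 0.452% in controls and 0.194% to 0.746% in the other TBI libraries). Marker lists of several cell types had estimates of 1 sign. Estimates were lower for all 8 osteoblast markers (median −0.77 log2), all 8 chondrocyte markers (−0.77), all 7 matched erythroid markers (−0.74) and all 8 B cell markers (−0.75). They were higher for all 10 neutrophil markers (1.01) and all 10 muscle markers (0.77). In edgeR 0 of these markers passed over all genes tested. At an unadjusted p under 0.05, 7 osteoblast, 7 chondrocyte and 5 erythroid markers were lower and 1 neutrophil marker was higher. Of all tested genes, 4.97% were lower and 2.37% higher at that p, and 45.6% had an estimate below 0. DESeq2 called 3 osteoblast, 5 chondrocyte and 5 erythroid markers. It called 0.672% of genes with an adjusted p as lower and 0.0646% as higher. Apart from the muscle and neutrophil covariates given below, the part of these cell types in the results was not tested.

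Most members had narrow intervals around small differences. No member passed an adjusted p of 0.05 in edgeR's quasi-likelihood test, and none of the 17144 tested genes did (0%). At an unadjusted p under 0.05, 1 member was lower (Atp6v0d2), against 4.97% of all tested genes, and 1 was higher (Ctsc), against 2.37%. DESeq2 called 0 members, where it called 0.672% of genes with an adjusted p as lower and 0.0646% as higher. For 32 of the 40 members the 95% interval of the fold change lay inside 1.5-fold either way, and for 37 inside 2-fold. Among the 6919 tested genes in the same range of mean CPM, the shares were 66.7% and 88%, against 80% and 92.5% of members.

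**Figure D1:**
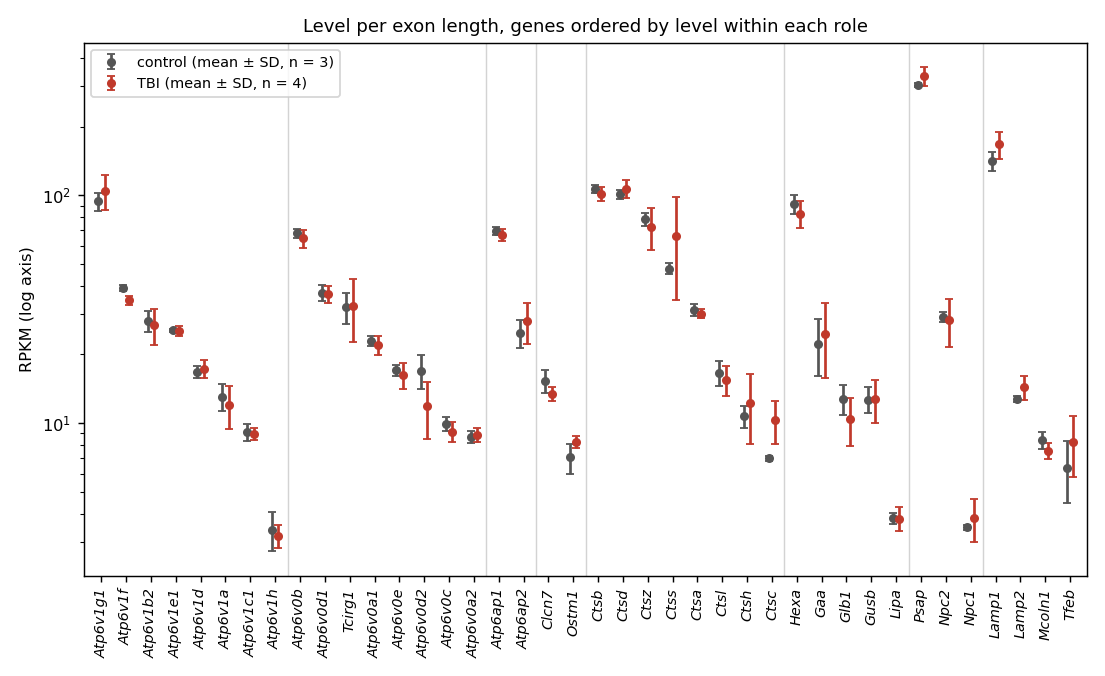
Level of each member in RPKM (log axis) in control (grey, n = 3) and TBI libraries (red, n = 4); points are means and bars SD. Genes are ordered by control level within each role, from Psap at 304.3 RPKM down to Atp6v1h at 3.40 RPKM, and the groups differ far less than the genes do.

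Levels per length differed widely among pump subunits. Atp6v1g1, a stalk subunit of V1, stood at 93.7 ± 8.81 RPKM in controls (SD, n = 3). Next came the accessory subunit Atp6ap1 at 69.7 ± 3.15 RPKM and the ring subunit Atp6v0b at 68.0 ± 3.22 RPKM, whose values overlap within their SD. Atp6v1h, a regulatory V1 subunit, was lowest at 3.40 ± 0.669 RPKM. Merged exon length counts all annotated exons, so genes with long, little-used exons appear too low. Atp6v0c, which makes most of the ring, measured 9.91 ± 0.723 RPKM in controls, and it has 2 annotated pseudogenes that could take some of its reads.

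Several members carry in their promoters the E-box letters that TFEB, a transcription factor encoded by a member, and its relatives recognise in many lysosomal genes. Promoters (250 bases before to 50 after the start site, RefSeq on GRCm38.p6) were matched for 31 of the 40 members. The letters TCACGTG, searched on both strands, were found in 11 of those 31 members (35.5%) and in 4.29% of 27025 genes with a promoter entry. The longer TCACGTGAC, which contains them, was found in 4 members (12.9%) against 0.895% of genes. With a further G before these letters the match was in 0 members and in 0.37% of genes. One window of 30 bases follows for each of the 11 genes, read 5′ to 3′ on the gene's strand, with the matched letters in capitals, to show how alike the matches are and where they lie.
Atp6v1a (chr16:44139373-44139402, minus, match from base −132): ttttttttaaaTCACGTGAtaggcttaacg
Atp6v0b (chr4:117887349-117887378, minus, match from base −37): tgtgcgcgggggTCACGTGgggtcggcgca
Atp6v0d1 (chr8:105566051-105566080, minus, match from base −5): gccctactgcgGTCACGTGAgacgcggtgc
Atp6v0e (chr17:26676387-26676416, plus, match from base 3): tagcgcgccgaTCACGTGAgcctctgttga
Clcn7 (chr17:25133363-25133392, plus, match from base −16): ctccgtcgtcagTCACGTGggcaccgatga
Ctsa (chr2:164833766-164833795, plus, match from base 5): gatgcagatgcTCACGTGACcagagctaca
Ctsd (chr7:142387908-142387937, minus, match from base −99): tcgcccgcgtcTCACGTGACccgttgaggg
Gaa (chr11:119267810-119267839, plus, match from base −141): ttttctgtgcgaTCACGTGtttgactctga
Glb1 (chr9:114401017-114401046, plus, match from base −49): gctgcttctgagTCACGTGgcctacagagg
Lamp1 (chr8:13159087-13159116, plus, match from base −62): gagggcaagataTCACGTGgtccagcgccc
Mcoln1 (chr8:3500462-3500491, plus, match from base −46): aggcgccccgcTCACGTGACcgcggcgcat
Lamp1 holds 4 such matches, and Atp6v0b, Clcn7, Ctsa, Ctsd and Mcoln1 hold 2 each. The 11 members with TCACGTG had a median log2 fold change of −0.07 (−0.30 to 0.24), and the 20 matched members without it 0.0017 (−0.18 to 0.56). These ranges overlap, and a match is a description of letters, not of binding. Since the letters are known from many lysosomal genes, a higher share in a list of such genes was foreseeable and is no separate finding.

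The common subunits of the proton pump had small estimated differences. Of its 18 genes, 13 had a lower estimate after TBI, against 45.6% of all tested genes, and the median log2 fold change was −0.06, beside 0.03 for all tested genes. Without 1 library at a time, that median lay between −0.11 (without TBI 1) and −0.0069 (without TBI 4), and with the muscle marker mean as a covariate it was 0.0035. The count was 9 lower and 9 higher without control 1, and also 9 and 9 with the muscle covariate. For 17 of the 18, all but Atp6v0d2, the 95% interval stayed inside 1.5-fold either way. The median ratio of the highest to the lowest of the 7 libraries was 1.25 for pump genes, beside 1.49 for the 20 lysosomal genes and 1.46 for tested genes of like level.

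In the V1 part, which burns ATP, 6 of 8 genes had lower estimates. Atp6v1a and Atp6v1b2 encode the subunits that form the ATP-burning head, and their log2 fold changes were −0.12 ± 0.18 (SE) and −0.07 ± 0.16. The steadiest member was Atp6v1e1, a stalk subunit, at 107, 103 and 105 CPM in controls 1 to 3 and 108, 98.7, 109 and 102 CPM in TBI 1 to 4. Its log2 fold change was −0.0060 ± 0.10 (95% interval −0.23 to 0.22). The stalk genes Atp6v1d and Atp6v1g1 were at 0.04 ± 0.11 and 0.15 ± 0.16, and the stator gene Atp6v1c1 and Atp6v1h were at −0.03 ± 0.11 and −0.09 ± 0.16.

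Atp6v1f, a small subunit of the central rotor (ENSMUSG00000004285, GRCm38 chromosome 6, 29467718 to 29470512, plus strand), was the only member with every TBI library below every control, against 5.38% of all tested genes. It measured 39.99, 42.4 and 42.4 CPM in controls 1 to 3 and 35.6, 35.8, 39.4 and 36.3 CPM in TBI 1 to 4. The gap between the groups was narrow, since TBI 3 lay close under control 1. Its log2 fold change was −0.18 ± 0.10 (SE), a 1.13-fold difference, with an unadjusted p of 0.0995 and an adjusted p of 0.734 in edgeR.

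In the V0 part, which carries the protons, the 2 forms of the d subunit differed in their values. This subunit couples the V1 rotor to the V0 ring, and d1 is the form found in most cells. Atp6v0d1 (chromosome 8, 105524465 to 105566047, minus strand) measured 72.8, 64.1 and 63.0 CPM in controls 1 to 3 and 71.5, 66.7, 67.7 and 57.9 CPM in TBI 1 to 4, with a log2 fold change of −0.02 ± 0.12 (SE; 95% interval −0.28 to 0.25). Its groups overlap, with TBI 4 below all controls and the other TBI libraries within their range. Atp6v0d2 (ENSMUSG00000028238, chromosome 4, 19876841 to 19922605, minus strand) measured 48.2, 52.8 and 37.3 CPM in controls 1 to 3 and 45.8, 27.6, 26.9 and 28.7 CPM in TBI 1 to 4. TBI 2, TBI 3 and TBI 4 lay below all controls, and TBI 1 lay among the controls. The log2 fold change of Atp6v0d2 was −0.51 ± 0.21 (SE; 95% interval −1.002 to −0.027), with an unadjusted p of 0.041 and an adjusted p of 0.665 in edgeR. With 1 library left out, the estimate ranged from −0.74 (without TBI 1) to −0.41 (without control 2). With the neutrophil marker mean as a covariate it was −0.71, and without TBI 3 and TBI 4 together it was −0.35.

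As a share of d1 plus d2 in RPKM, d2 made up 31.2% ± 3.63 (SD) in the 3 control libraries and 24.2% ± 4.09 (SD) in the 4 TBI libraries, a difference of −7.09 percentage points. The share was 30.4%, 35.2% and 28.1% in controls 1 to 3, against 29.7%, 21.5%, 20.8% and 24.7% in TBI 1 to 4. TBI 1 again lay within the control range, and the other TBI libraries lay below it. A two-sided exact permutation test over the 35 possible assignments gave p = 0.114 (0.228 adjusted over the 2 subunit shares tested), where the smallest possible is 0.0571. A threshold of 0.05 cannot be reached with 3 against 4 libraries.

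**Figure D2:**
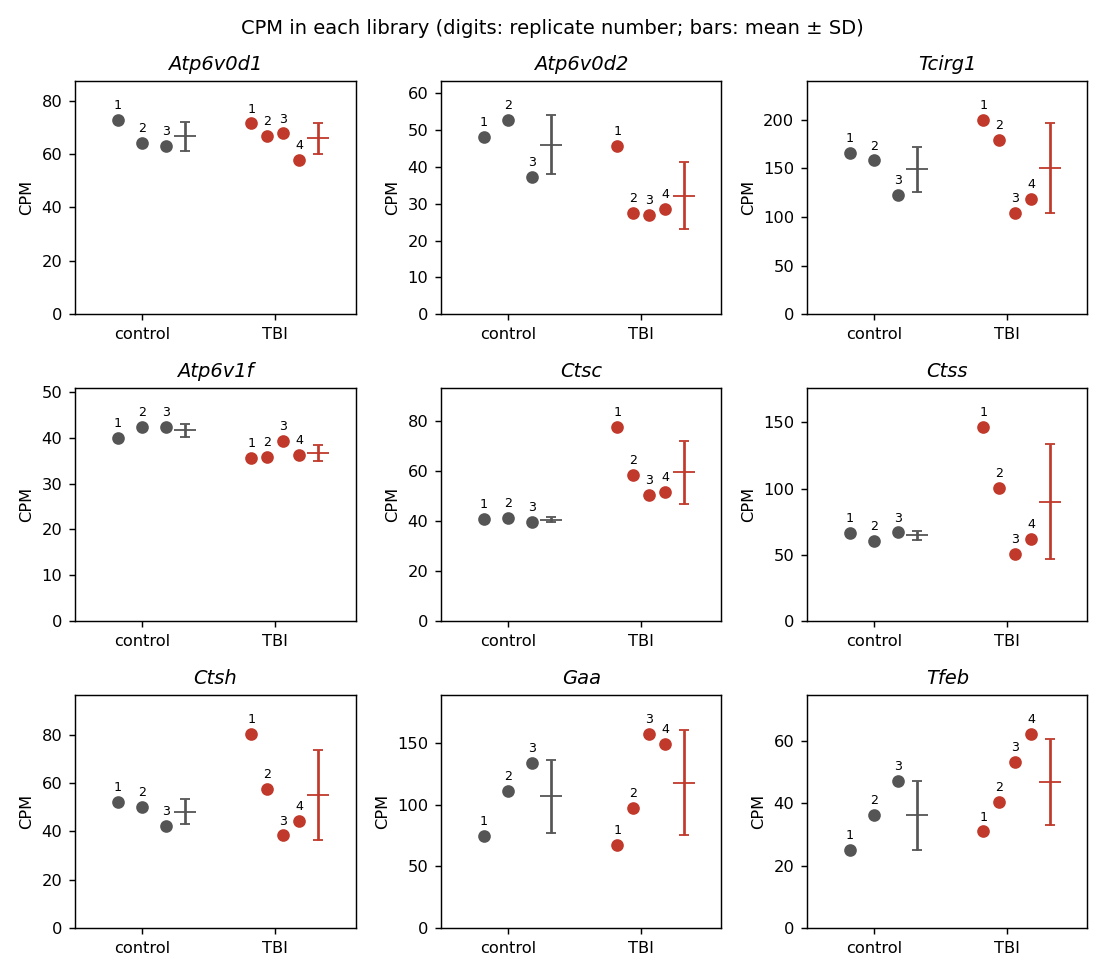
CPM in each library for 9 members, with replicate numbers beside the points and the mean ± SD at the right of each group (control grey, n = 3; TBI red, n = 4). Atp6v0d2 is low in TBI 2 to TBI 4 and not in TBI 1, Ctsc is above all controls in each TBI library, and Gaa and Tfeb spread as widely within groups as between them.

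The 3 main forms of the a subunit, which lines the proton path, had estimates close to 0. Atp6v0a1 stood at −0.06 ± 0.12 (SE) and Atp6v0a2 at 0.03 ± 0.11 on the log2 scale. Tcirg1, whose loss in mice and people leaves bone unresorbed, measured 166, 158 and 123 CPM in controls 1 to 3 and 200, 179, 104 and 119 CPM in TBI 1 to 4. TBI 1 and TBI 2 lay above all controls and the others below all controls, so that its log2 fold change of 0.02 ± 0.24 (95% interval −0.53 to 0.57) averages unlike libraries. The a3 share of a1 plus a2 plus a3 in RPKM was 50.3% ± 4.31 in controls and 50.6% ± 8.60 after TBI (exact permutation p = 0.971, n = 3 and 4). With TBI 3 and TBI 4 left out the difference was 7.37 percentage points, and without TBI 1 it was −2.36. The ring genes Atp6v0b and Atp6v0c were at −0.07 ± 0.12 and −0.11 ± 0.12, and the small membrane subunit gene Atp6v0e at −0.07 ± 0.13.

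Osteoclast genes outside the list were examined beside the pump. Of 16 osteoclast and resorption genes, 14 had a lower estimate (45.6% of all tested genes did), with a median log2 fold change of −0.27. In edgeR 0 passed over all genes tested, and 4 were lower and 0 higher at an unadjusted p under 0.05, against 4.97% and 2.37% of all tested genes (DESeq2 called 0). Not all pointed down: the integrin gene Itgb3 was at 0.32 and Calcr at 0.01. Nfatc1, the master transcription factor of osteoclasts, had a slightly lower estimate, at −0.03. Itgb3, Calcr and Nfatc1 were chosen for mention with their estimates already known. Siglec15, a receptor needed for osteoclast maturation, was at −1.07 ± 0.32 (SE), the collagen-cutting protease gene Ctsk at −0.74 ± 0.24 and Acp5, the acid phosphatase of osteoclasts, at −0.54 ± 0.23. None of the 16 was at 0 counts in any library. The list's summed share of counts was 0.356% to 0.510% in controls and 0.290% to 0.465% after TBI. Car2 weighed most in this sum, at a mean of 1702 CPM in controls and 1507 CPM after TBI. Which cells the RNA of the 16 genes came from, Itgb3 and Car2 included, was not tested. Nor was the part of those cells in the Atp6v0d2 values.

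Accessory subunits and the chloride partner were also near the controls. Atp6ap1, which helps the pump assemble and traffic, was at −0.06 ± 0.11 (SE), and Atp6ap2, also known as the prorenin receptor, at 0.18 ± 0.18. Clcn7 encodes the antiporter that brings chloride into the acid compartment, and Ostm1 encodes its beta subunit. Clcn7 was at −0.19 ± 0.12 with 81.3, 90.3 and 71.5 CPM in controls 1 to 3 and 74.5, 68.5, 75.4 and 64.8 CPM in TBI 1 to 4. Ostm1 was at 0.23 ± 0.13 with 59.8, 46.5 and 46.4 CPM in controls and 65.1, 59.6, 57.6 and 56.7 CPM after TBI. The partners thus pointed in opposite directions, and both groups overlapped in each. Clcn7 was at −0.11 without control 2, and Ostm1 at 0.36 without control 1.

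Most tissue-restricted paralogs of the pump were scarce. Tmem9 and Atp6v0e2 of the same list, named after their values were seen, were not. Tmem9 had means of 34.3 CPM in controls and 33.8 CPM after TBI, and Atp6v0e2 had 13.3 and 16.2 CPM. Of 9 further subunit and pump-associated genes, 5 passed the filter, and 0 had an unadjusted p under 0.05 (2 estimates lower, 3 higher). Atp6v1b1, the B subunit of kidney and inner ear, had 0 counts in all 7 libraries, which allows up to 0.128 to 0.189 CPM (3 counts per library, counting error only). Atp6v1c2 was at 1.12 ± 0.60 from a control mean of 0.469 CPM, Atp6v0a4 at −0.49 ± 0.27 and Atp6v1g2 at 0.37 ± 0.24.

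**Figure D3:**
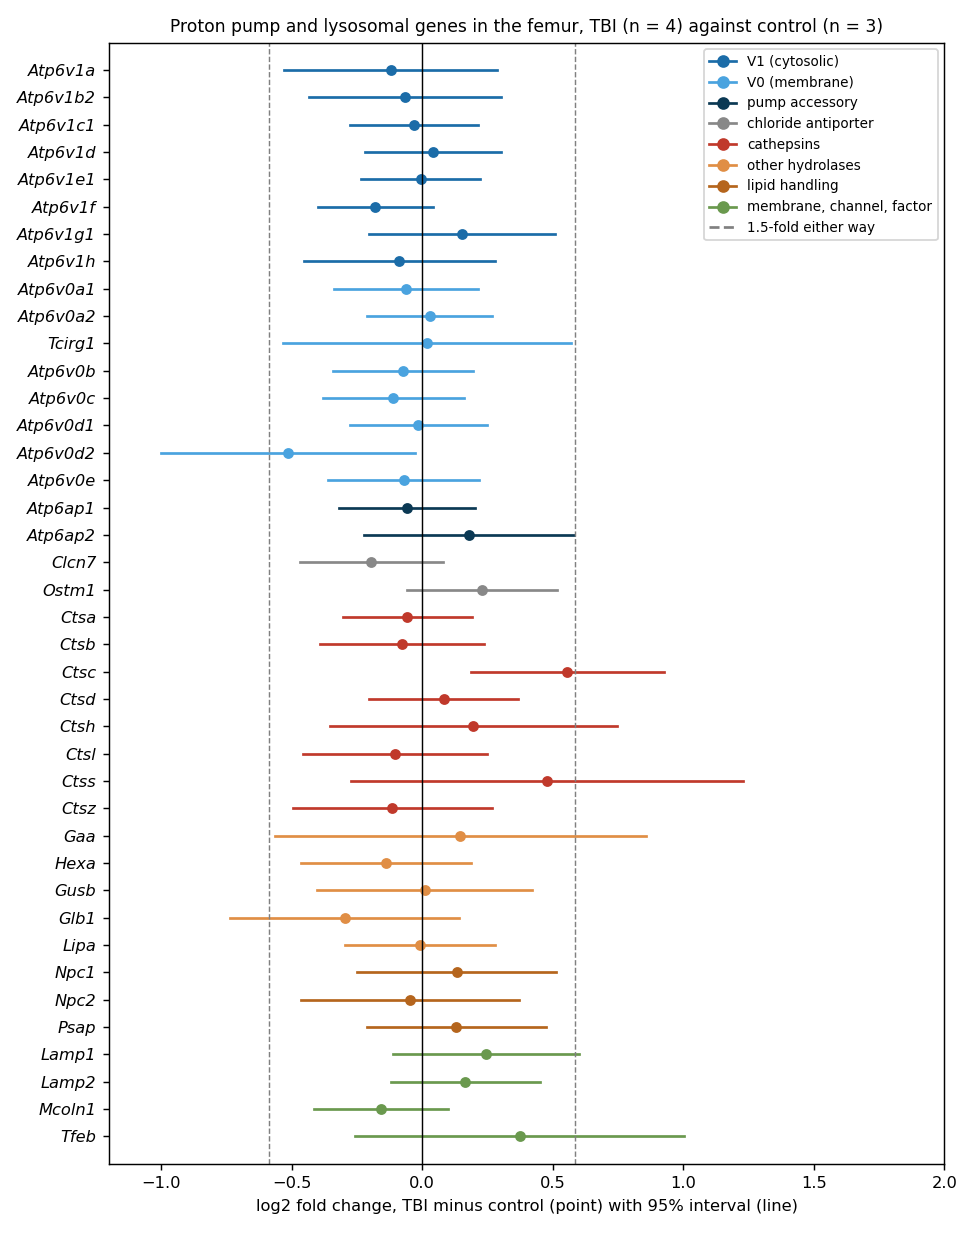
Log2 fold change of TBI minus control for the 40 members (points) with 95% intervals from edgeR (lines), coloured by role; dashed lines mark 1.5-fold either way. The intervals of Atp6v0d2 and Ctsc leave out 0, and those of most pump genes stay between the dashed lines.

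The 20 lysosomal genes were split evenly, with 9 lower and 11 higher estimates and a median log2 fold change of 0.05. This median depended on TBI 1: without that library it was −0.06. With the neutrophil marker mean as a covariate it was −0.03. The mean over the 20 genes was 6.65 log2 CPM in control 1, 6.73 in control 2 and 6.70 in control 3, and after TBI it was 6.87 in TBI 1, 6.73 in TBI 2, 6.71 in TBI 3 and 6.70 in TBI 4, so only TBI 1 lay outside the range of the controls. As a sum, these genes took 0.341% to 0.348% of counts in controls and 0.348% to 0.388% after TBI. Unlike the mean, the sum was above all controls in TBI 1 (0.388%), TBI 3 (0.356%) and TBI 4 (0.354%). In TBI 2 it was level with control 2 (0.348%).

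Cathepsin C had the highest estimate of the 8 listed cathepsins. Ctsc encodes dipeptidyl peptidase I, which activates the serine proteases of neutrophil granules by removing a dipeptide from their start. It (ENSMUSG00000030560, chromosome 7, 88278085 to 88310888, plus strand) measured 41.0, 41.2 and 39.6 CPM in controls 1 to 3 and 77.8, 58.6, 50.6 and 51.6 CPM in TBI 1 to 4. Every TBI library lay above every control, which held for 2.66% of all tested genes and for no other member. One such gene, 1 of 40 members, is near that share. The log2 fold change was 0.56 ± 0.16 (SE; 95% interval 0.19 to 0.93), a 1.47-fold difference, with an unadjusted p of 0.00798 and an adjusted p of 0.514 in edgeR. It was 0.40 without TBI 1, 0.39 with the neutrophil marker mean as a covariate and 0.64 with the muscle marker mean. The neutrophil marker mean was 6.93 to 7.62 log2 CPM in controls and 9.06, 8.28, 6.38 and 8.14 log2 CPM in TBI 1 to 4, and whether neutrophil RNA set the Ctsc values was not tested beyond that covariate.

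Cathepsins S and H followed the libraries more than the groups. Ctss encodes an elastin-cutting protease of antigen-presenting cells, and it measured 66.4, 60.6 and 67.0 CPM in controls 1 to 3 and 147, 100.2, 51.0 and 62.3 CPM in TBI 1 to 4. Ctsh encodes an aminopeptidase, and its values were 52.0, 49.9 and 42.3 CPM in controls and 80.4, 57.4, 38.3 and 44.1 CPM in TBI 1 to 4. Both genes were above all controls in TBI 1 and TBI 2, and below all controls in TBI 3. Their log2 fold changes were 0.48 ± 0.33 (SE) and 0.20 ± 0.24. With the neutrophil marker mean as a covariate these became −0.02 and −0.13, and with the macrophage marker mean, chosen after seeing the data, 0.34 and 0.13. Without TBI 1 they were 0.14 and −0.04. The 12 macrophage markers, of which 11 passed the filter, took 0.0323% to 0.0425% of counts in controls and 0.0549%, 0.0363%, 0.0280% and 0.0328% in TBI 1 to 4.

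The other cathepsins were near the controls. Ctsb, an endopeptidase of most cells, had the highest control level per length of the 8 listed cathepsins (106.7 ± 4.47 RPKM). Outside the list, Ctsk (368.7 RPKM) and Ctse (189.6 RPKM) were higher in controls. The log2 fold change of Ctsb was −0.08 ± 0.14 (SE). Ctsd, the main aspartic protease of lysosomes, was close to Ctsb in level at 100.7 ± 4.25 RPKM, with a log2 fold change of 0.08 ± 0.12. Another annotated gene shares 34.4% of the Ctsd exon bases on the same strand, so Ctsd counts are uncertain. Ctsa, which protects beta-galactosidase in a complex, was at −0.06 ± 0.11, Ctsz at −0.11 ± 0.17 and Ctsl at −0.10 ± 0.15. An antisense gene covers 26.8% of the Ctsl exon bases, and whether counting used strand was not given in the sources used here. Of 3 cathepsin genes restricted to blood cells or lining epithelia, Ctsg of neutrophil granules was at 0.96 ± 0.46, Ctse at −0.17 ± 0.20 and Ctsw at 0.03 ± 0.34, and 0 had an unadjusted p under 0.05.

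Hydrolases of sugars and lipids showed 1 gene with a wide spread. Gaa, the acid alpha-glucosidase that clears glycogen from lysosomes and whose loss damages muscle, measured 74.9, 111 and 134 CPM in controls 1 to 3 and 67.5, 97.7, 158 and 149 CPM in TBI 1 to 4. Its log2 fold change was 0.15 ± 0.31 (SE), and it was 0.34 without control 3, 0.33 without TBI 1, −0.18 with the muscle marker mean as a covariate, and −0.40 without TBI 3 and TBI 4 together. Leaving out control 1 gave −0.06, leaving out TBI 3 gave −0.03, and leaving out TBI 4 gave 0.01. Glb1, the acid beta-galactosidase, was at −0.30 ± 0.19, with 40.8, 42.6 and 31.7 CPM in controls and 41.6, 31.3, 26.1 and 25.9 CPM after TBI. TBI 2, TBI 3 and TBI 4 lay below all controls. The Glb1 estimate was −0.47 without TBI 1, −0.48 with the neutrophil covariate, −0.17 with the muscle covariate and −0.10 without TBI 3 and TBI 4. Hexa was at −0.14 ± 0.14, Gusb at 0.0094 ± 0.18 and Lipa at −0.0074 ± 0.13.

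Psap had the highest level per length of the 40 members. It encodes the precursor of the saposins, which help hydrolases reach membrane lipids, and it stood at 304.3 ± 6.37 RPKM in controls and 333.1 ± 32.1 RPKM after TBI. Its log2 fold change was 0.13 ± 0.15 (SE). The cholesterol exporters Npc1 and Npc2 were at 0.13 ± 0.17 and −0.05 ± 0.18. Npc1 measured 37.0 and 34.3 CPM in TBI 1 and TBI 2 and 54.0 and 47.8 CPM in TBI 3 and TBI 4, around controls of 38.2 to 40.2 CPM. Npc2 ran the other way, with 200 and 164 CPM in TBI 1 and TBI 2 and 125 CPM in both TBI 3 and TBI 4, around controls of 153 to 167 CPM. Without TBI 3 and TBI 4 the estimates were −0.17 for Npc1 and 0.18 for Npc2, each opposite in sign to its estimate over all libraries.

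Membrane proteins, the calcium channel and the transcription factor closed the list. Lamp1 and Lamp2, the chief glycoproteins of the lysosomal membrane, were at 0.24 ± 0.16 (SE) and 0.16 ± 0.13. Lamp1 measured 349, 366 and 417 CPM in controls 1 to 3 and 382, 411, 481 and 514 CPM in TBI 1 to 4. The Lamp1 estimate was 0.17 without TBI 4, 0.32 without control 3 and 0.05 without TBI 3 and TBI 4, where its values were highest. Mcoln1, which encodes the calcium channel TRPML1, was at −0.16 ± 0.11. Tfeb, the factor that turns on lysosomal genes, measured 25.1, 36.3 and 47.1 CPM in controls and 31.0, 40.5, 53.4 and 62.5 CPM in TBI 1 to 4. Its log2 fold change was 0.37 ± 0.28, with an adjusted p of 0.765 in edgeR, and it was 0.12 with the muscle marker mean as a covariate, 0.17 without control 1, 0.20 without TBI 4, 0.61 without control 3 and −0.04 without TBI 3 and TBI 4.

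Gaa and Tfeb were highest in the libraries with the most muscle RNA. The share of counts taken by the muscle markers was 1.75% in control 1, 3.39% in control 2 and 5.91% in control 3, and it was 2.07% in TBI 1, 3.27% in TBI 2, 8.53% in TBI 3 and 10.75% in TBI 4. Control 1 and TBI 1 had the least muscle RNA and the 2 lowest values of both genes, and TBI 3 and TBI 4 had the most muscle RNA and the 2 highest values of both. Rragd, a GTPase of the nutrient-sensing machinery on the lysosome, singled out after its values were seen, measured 40.2, 71.1 and 105 CPM in controls and 50.2, 64.6, 155 and 192 CPM in TBI 1 to 4, which is the order of the muscle markers.

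**Figure D4:**
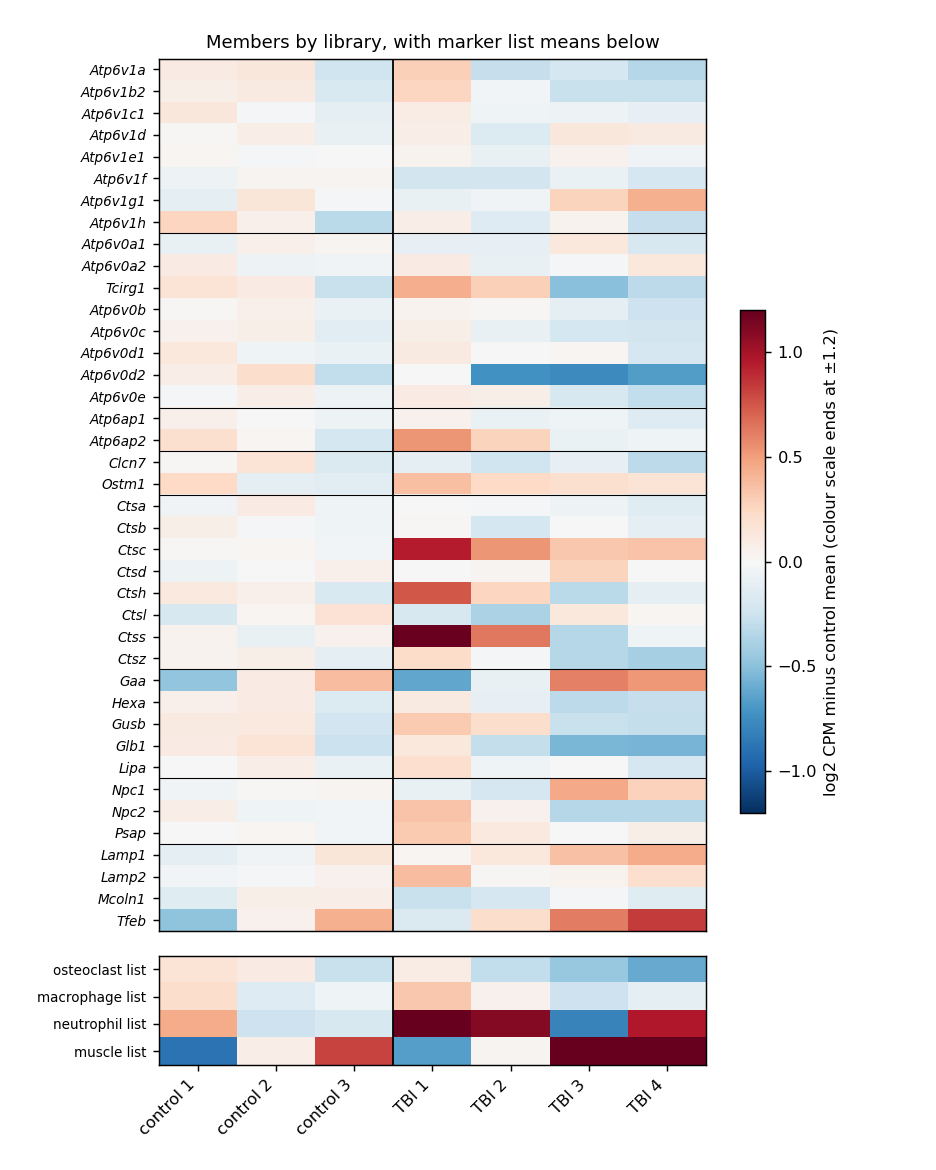
Log2 CPM of each member in each library minus the control mean (colour; the scale ends at ±1.2), with the means of 4 marker lists below on the same scale. Atp6v0d2 is low in TBI 2 to TBI 4, Ctss and Ctsh are high in TBI 1 and TBI 2, and Gaa and Tfeb share with the muscle row low values in control 1 and TBI 1 and high values in control 3, TBI 3 and TBI 4.

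Other lysosomal genes gave a similar picture. Of 42 further hydrolases, membrane proteins and sorting receptors, 22 had lower and 20 higher estimates, with a median log2 fold change of −0.02. In edgeR 0 passed over all genes tested, 2 were lower and 1 higher at an unadjusted p under 0.05, and DESeq2 called 0. These counts are near the shares over all tested genes (4.97% lower and 2.37% higher). Sort1, a receptor that sorts enzymes to lysosomes, was at 0.54 ± 0.16 (SE), with 85.7, 63.4 and 70.3 CPM in controls and 125, 97.0, 91.0 and 113 CPM after TBI. Every TBI library was above every control, as for 2.66% of all tested genes. The cysteine protease gene Ctsf was at −0.34 ± 0.13, and Naglu, an enzyme of heparan sulfate breakdown, at −0.37 ± 0.15.

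Of 15 genes of the TFEB family and of the nutrient-sensing complex on the lysosome, 12 had a higher estimate and 3 a lower one (45.6% of all tested genes were lower), with a median of 0.20 log2. Averaged over the 15 genes, controls 1 to 3 were at 4.97, 5.01 and 5.15 log2 CPM, against 5.10, 5.11, 5.30 and 5.37 log2 CPM in TBI 1 to 4. The average was highest in TBI 3 and TBI 4, the libraries with the most muscle RNA, whose part in it was not tested. In edgeR 0 passed over all genes tested, and 2 were higher and 0 lower at an unadjusted p under 0.05, against 2.37% and 4.97% of all tested genes (DESeq2 called 0). Both are subunits of the Ragulator complex, which anchors the Rag GTPases to the lysosome. Lamtor1, Lamtor3 and Lamtor5 of the same complex, named after their values were seen, had overlapping groups. They were at 0.12 ± 0.13, −0.05 ± 0.09 and 0.13 ± 0.12 log2 (SE). Lamtor4 measured 29.4, 32.3 and 33.5 CPM in controls 1 to 3 and 45.01, 47.8, 33.7 and 50.1 CPM in TBI 1 to 4 (0.48 ± 0.15 log2, SE). Lamtor2 measured 32.04, 29.7 and 31.7 CPM in controls and 33.4, 41.5, 37.1 and 39.4 CPM after TBI (0.28 ± 0.11 log2). Neither gene's groups overlapped, where 2.66% of all tested genes had every TBI library above every control, and TBI 3 was close to control 3 for Lamtor4. The Rag GTPase gene Rraga was at 0.20 ± 0.11.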

How the data were processed

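The authors deposited raw counts per Ensembl gene for 7 mouse femur libraries (3 control, 4 TBI), and these whole-number counts were used. STAR, DESeq and GRCm38 are named in the submitters' processing notes, and per the labels' protocols the library kit marks strand and selects mRNA. The counting tool was not given in the sources used here. The deposited normalized table was not used. Symbols and exon lengths came from GENCODE M21 (49412 of 49671 identifiers). Counts were filtered with filterByExpr (17144 genes), scaled by TMM and tested with edgeR 4.0.16 in R 4.3.3 (quasi-likelihood F-test, Benjamini-Hochberg adjustment over all genes, threshold 0.05). Fold changes are TBI minus control. The standard error is the estimate over the root of F, and 95% intervals use the fit's degrees of freedom. Alternatives used DESeq2 1.42.0 (1664 genes without an adjusted p), limma 3.58.1, other scalings and filters, covariates, a replicate block and left-out libraries. The edgeR step was tested on simulated data. The members and lists were chosen with earlier results of these data known. All 40 members are named, and from each further list the 3 genes with the smallest p. Values of single libraries beyond Atp6v0d2, Ctsc, Atp6v1f and their paralogs were picked after they were seen. Total counts were 15461528 to 21783534, and replicates differed by more than sampling noise (chi-square per degree of freedom of 27.2 or more). The marker Ahsp was not matched.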

Additional observations from a re-analysis of the deposited data

Results flagged for a closer look

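In 3 of the 42 sets of 4 TBI values tested (40 members and 2 subunit shares), 1 library lay far from the others, by Dixon's ratio of gap to range above 0.829. Chance alone flags about 1 set in 20. Atp6v0d2 was at 45.8 CPM in TBI 1, where the other TBI libraries held 26.9 to 28.7 CPM. Ctsd was at 284.4 CPM in TBI 3, against 238 to 242 CPM in the other TBI libraries. Atp6v1f was at 39.4 CPM in TBI 3, against 35.6 to 36.3 CPM in the others.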

How the results depend on the processing

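In edgeR and limma-voom, 0 members and 0 genes passed an adjusted p of 0.05 under any scaling, filter, covariate, threshold or left-out library tried, and DESeq2 called 114 genes (104 lower, 10 higher), 0 of them members. At an unadjusted p under 0.05, edgeR gave 1259 of 17144 genes and 2 of 40 members in the main fit. With the muscle covariate it gave 2761 genes and 8 members, and with the replicate block 1909 genes and 4 members. The pump median ranged from −0.11 to −0.0069 with each library left out. The lysosomal median was −0.033 with the neutrophil covariate and ranged from −0.061 to 0.072 with each library left out. Its sign changed without TBI 1, and under upper quartile scaling it was 0.0051. The difference in d2 share ranged from −8.95 to −5.10 percentage points and that in a3 share from −2.36 to 3.68 with each library left out. With the replicate number as a block, 0 members passed, and the pump and lysosomal medians were −0.01 and 0.05. Same-numbered libraries deviated together in pairs 1 and 3 (r = 0.549 and 0.322 over 17144 genes) and not in pair 2 (−0.0277), and 4 of 6 libraries correlated best with their own number. The labels state no pairing, and these values do not settle whether the numbers mark one.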
